A study of Mus musculus with 2 samples.

Results

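Membrane transporter genes carried 229 of the 12603 intronic RNA pieces (1.82%) that were assembled from mouse spleen, and these 229 lay in 90 host genes out of 4346 (2.07%). They were chosen by name and position only. Each was an assembled transcript of class code i, which means that it lay wholly inside an intron of an annotated gene, and its host gene had a symbol of the Slc or Slco (solute carrier), Abc (ATP-binding cassette) or Atp (ATP-driven pump) families. Over all classes, 16840 assembled transcripts were listed. The symbols also took in a few proteins that move no substrate across a membrane alone, such as Abcf3, a soluble ABC protein, Atp1b3, a beta subunit of the sodium pump, and Slc3a1, a partner chain of an amino acid carrier.

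Total RNA of spleen cells, depleted of ribosomal RNA, was sequenced in 2 libraries. The first came from mice with collagen-induced arthritis (CIA spleen), in which immunization with type II collagen leads to an autoimmune arthritis. Its title gives day 40, while the treatment label gives sacrifice at 42 days after the first immunization. The second library came from healthy mice, which had no treatment (healthy spleen). The sources used here do not give the strain, the age, the sex or the number of mice behind each library. With 1 library per group, no difference can be tested against the spread between mice, and every ratio here describes this pair of libraries.

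Solute carriers move ions, sugars, amino acids, nucleotides and drugs along a gradient or coupled to another ion. ABC transporters and P-type ATPases spend ATP to pump lipids, drugs, metals or ions. In the spleen, red cell precursors rely on carriers for iron, heme, bicarbonate and urea, macrophages recycle iron and export cholesterol, and most other transporters serve lymphocytes and stromal cells alike. RNA from introns belongs mostly to the unspliced precursor of the host gene or to separate noncoding transcripts that start inside it, and assembled pieces of single exons do not tell these apart.

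Of the 90 hosts, 66 had promoter windows in the RefSeq table for GRCm38.p6, 80 windows in all, each running from 250 bases before to 50 bases after a transcription start. The sequences shown are those of the hosts with at least 5 intronic transcripts that all lay on the same side of an equal level in the libraries (Slc41a2, Slc4a7 and Slc25a21), since all of their intronic RNA differed in 1 direction. Slco3a1 belongs with them by that rule. Slc25a25, which encodes a mitochondrial ATP-magnesium/phosphate carrier, is added because the only intronic transcript to overlap a promoter window of its host lies there, at a start inside the gene. Capitals mark the letters TATAAA on either strand in the Slc4a7 and Slc25a21 windows, and in the Slc25a25 window the 170 bases that intronic transcript MSTRG.20842.1 covers. All are printed 5′ to 3′ on the strand of the gene. The windows are chr10:83337768-83338067 on the minus strand for Slc41a2, chr14:14718534-14718833 on the plus strand for Slc4a7, chr12:57160594-57160893 on the minus strand for Slc25a21 and chr2:32424017-32424316 on the minus strand for Slc25a25.
Slc41a2: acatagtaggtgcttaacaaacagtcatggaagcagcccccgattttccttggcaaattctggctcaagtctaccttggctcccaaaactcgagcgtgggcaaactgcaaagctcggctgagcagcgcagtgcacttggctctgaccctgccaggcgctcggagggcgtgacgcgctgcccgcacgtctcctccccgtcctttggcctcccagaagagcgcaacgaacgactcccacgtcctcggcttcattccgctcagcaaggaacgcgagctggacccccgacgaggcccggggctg
Slc4a7: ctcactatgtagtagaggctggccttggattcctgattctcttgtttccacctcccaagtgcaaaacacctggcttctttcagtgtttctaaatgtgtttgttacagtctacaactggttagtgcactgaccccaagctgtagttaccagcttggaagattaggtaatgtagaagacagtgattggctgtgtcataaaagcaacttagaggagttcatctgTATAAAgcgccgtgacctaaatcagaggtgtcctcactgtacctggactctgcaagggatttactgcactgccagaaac
Slc25a21: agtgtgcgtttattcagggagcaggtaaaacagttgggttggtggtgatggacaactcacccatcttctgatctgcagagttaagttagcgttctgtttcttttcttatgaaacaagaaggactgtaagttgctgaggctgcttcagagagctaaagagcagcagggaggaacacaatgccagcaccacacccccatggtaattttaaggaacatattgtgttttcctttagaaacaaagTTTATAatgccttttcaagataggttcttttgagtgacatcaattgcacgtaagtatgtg
Slc25a25: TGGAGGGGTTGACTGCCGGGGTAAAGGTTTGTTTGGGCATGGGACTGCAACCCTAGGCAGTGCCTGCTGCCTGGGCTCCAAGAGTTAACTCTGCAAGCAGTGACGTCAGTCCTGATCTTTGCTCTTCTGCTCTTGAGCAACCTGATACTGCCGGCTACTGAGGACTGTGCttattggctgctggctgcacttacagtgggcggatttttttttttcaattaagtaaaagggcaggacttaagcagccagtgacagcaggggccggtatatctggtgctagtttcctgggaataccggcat

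The Slc41a2 window held 24 CG dinucleotides against a median of 7 over all 32851 windows, and all 18 intronic transcripts of the gene lay downstream of its start. The Slc4a7 window held 2 and the Slc25a21 window 3. Both of these starts lie inside the annotated gene, with 3 of 6 Slc4a7 transcripts and 4 of 5 Slc25a21 transcripts lying upstream of them. Over the 80 host windows, searched on both strands, TATAAA was present in 10% against 13.6% of all windows, the GATA-type letters GATAA in 13.8% against 25.4%, and the ETS-type letters GGAAGT in 23.8% against 23.8%. The search looked for letters only, and matches of GATAA and TATAAA cannot share bases.

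The intronic transcripts were short, mostly unspliced and of low level. Their length ran from 202 to 61775 bases with a median of 947, and 207 of 229 (90.4%) had 1 exon. All 229 lay inside the annotated span of their host in GENCODE M21 (GRCm38), and 0 of them overlapped an annotated exon. Of the 229, 5 lay outside the RefSeq span of the host, and 2 were in a host without a RefSeq entry. The level is given as FPKM, fragments per kilobase of transcript scaled to the fragments of the library, with 0.0001 listed in place of 0 (the floor). The median was 2.59 FPKM in CIA spleen and 2.08 FPKM in healthy spleen, and 186 transcripts were below 5 FPKM in both. The depth of the libraries is unknown, because FPKM keeps no counts.

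Each transcript was compared as log2((CIA FPKM + 0.1)/(healthy FPKM + 0.1)), called the log2 ratio, and each host by the median log2 ratio of its transcripts. The median over the 90 hosts was 0.19, against 0.20 over all 4346 hosts of intronic transcripts. It was above 0 in 56 hosts (62.2%), with 63.0% of all intronic hosts, and at or below 0 in 34. The ratio was at least 2-fold higher in CIA spleen in 14 hosts (15.6%), where 11.7% of all intronic hosts were. It was at least 2-fold lower in 10 hosts (11.1%), where 10.2% of all intronic hosts were. Over single transcripts, 36 (15.7%) were at least 2-fold higher, with 15.6% of all intronic transcripts, and 18 (7.86%) at least 2-fold lower, with 10.3% of all. These shares lie near those of intronic RNA in general. The median of all intronic transcripts was itself shifted, at 0.25, and 41 of the 90 hosts (45.6%) lay above that value, with 47.2% of all intronic hosts, so counts above 0.25 are given for the groups beside those above 0, to be read against these shares of 63.0% and 47.2%.

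**Figure D1:**
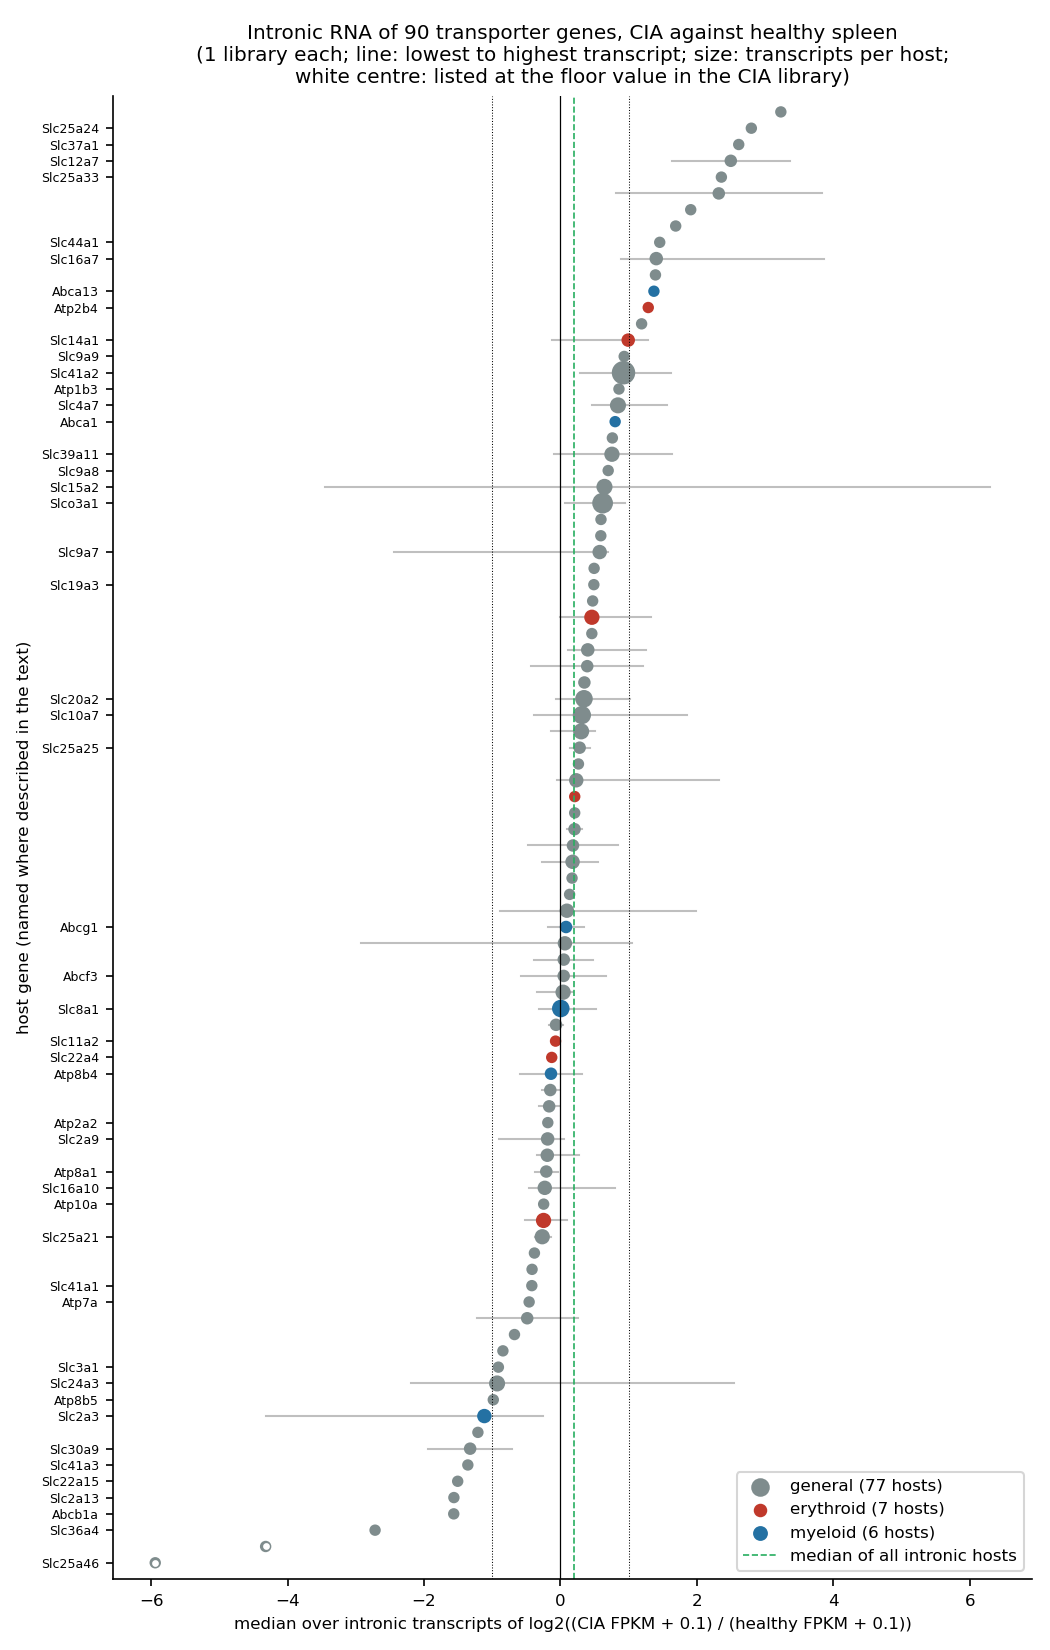
Median log2 ratio of each of the 90 host genes (x axis), ordered from the highest at the top, with a line from the lowest to the highest transcript, point size by the number of transcripts and colour by group; only hosts described in the text are named. The hosts spread around the median of all intronic hosts (0.20, dashed), the erythroid and myeloid hosts lie among the others, and the hosts with many transcripts lie between the 2-fold lines (dotted).

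The gene with the most intronic transcripts was Slc41a2, which encodes a magnesium transporter (chromosome 10, 83230848-83337882, minus strand). Its 18 transcripts covered 36.0 kb of the 107.0 kb gene, 9 of them within an intron of 25.2 kb. Their median level was 2.30 FPKM in CIA spleen and 1.27 FPKM in healthy spleen. All 18 were higher in CIA spleen, with log2 ratios from 0.28 to 1.62, a median of 0.92 and an SD between transcripts of 0.35. The transcript at the top, MSTRG.4169.1, stood at 2.09 and 0.615 FPKM, and the one at the bottom, MSTRG.4173.1, at 2.07 and 1.68 FPKM. The 18 transcripts share a gene and a pair of libraries, so they are not 18 independent observations.

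Slco3a1, an organic anion transporter that carries prostaglandins among other substrates (chromosome 7, 74275419-74554780, minus strand), was similar in direction. Its 13 transcripts covered 50.4 kb of 279.4 kb, and 11 of them lay in 1 intron of 144.3 kb. Their median was 2.98 FPKM in CIA spleen and 1.96 FPKM in healthy spleen. All 13 were higher in CIA spleen, by log2 ratios from 0.06 to 0.95 with a median of 0.62 and an SD of 0.27. Slc4a7, a sodium bicarbonate cotransporter (chromosome 14, 14702279-14799940, plus strand), had 6 transcripts, again all higher in CIA spleen. They ran from 4.04 to 8.65 FPKM there and from 1.31 to 4.95 FPKM in healthy spleen, so the ranges overlapped, with a median log2 ratio of 0.84.

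Slc8a1, the sodium-calcium exchanger that macrophages express, showed close to no difference over a far longer stretch. Its 8 transcripts lay in 1 intron of 202.2 kb (chromosome 17, gene at 81373105-81738377, minus strand) and covered 135.0 kb. The longest, MSTRG.17441.1, spanned 61775 bases at 4.81 FPKM in CIA spleen and 4.95 FPKM in healthy spleen. Of the 8, 4 were above 0, within log2 ratios of -0.31 and 0.52, and the host median was 0.00. Slc25a21, the mitochondrial oxodicarboxylate carrier (chromosome 12, 56712634-57197472, minus strand), went the other way in all 5 of its transcripts. Its median was 6.44 FPKM in CIA spleen and 7.44 FPKM in healthy spleen, with log2 ratios from -0.37 to -0.14 and the smallest SD of any host with at least 3 transcripts, 0.09.

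**Figure D2:**
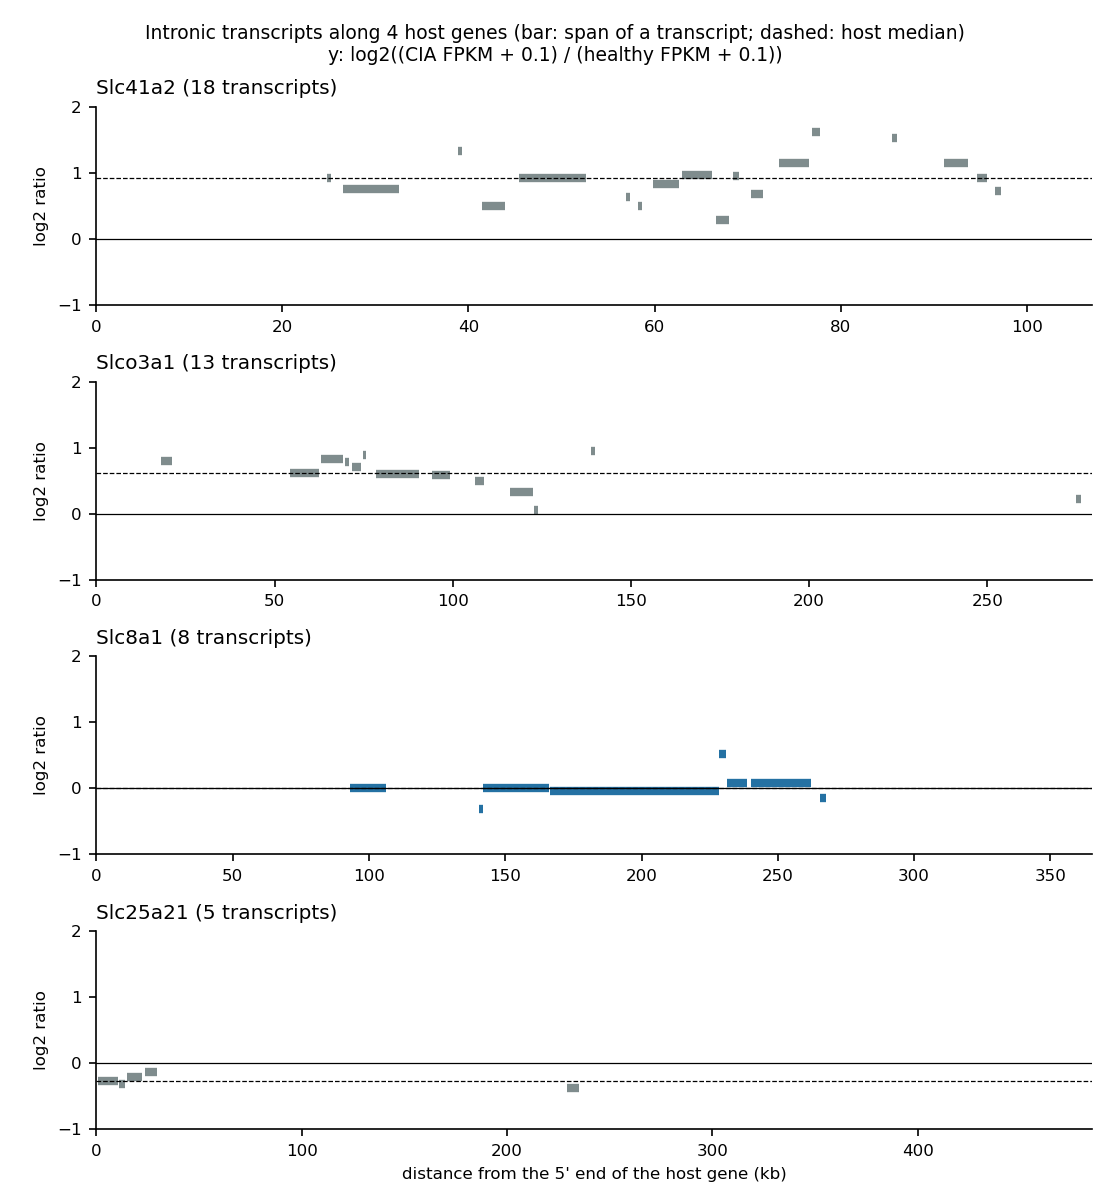
Log2 ratio of each intronic transcript (bar, drawn over its span) against its distance from the 5′ end of the host gene in kb, for Slc41a2, Slco3a1, Slc8a1 and Slc25a21. All bars of Slc41a2 and Slco3a1 lie above 0, those of Slc8a1 lie around 0 along more than 100 kb, and all 5 bars of Slc25a21 lie below 0.

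Such uniformity was also seen in intronic hosts of other kinds. Among hosts with at least 3 intronic transcripts, every transcript was higher in CIA spleen in 5 of 26 transporter hosts (19.2%) and in 27.0% of all such hosts. No transcript was higher in 2 of 26 (7.69%), against 6.67% of all such hosts. Within a transporter host the SD of the log2 ratio between transcripts had a median of 0.53 over these 26 hosts, and the SD between their host medians was 0.56.

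**Figure D3:**
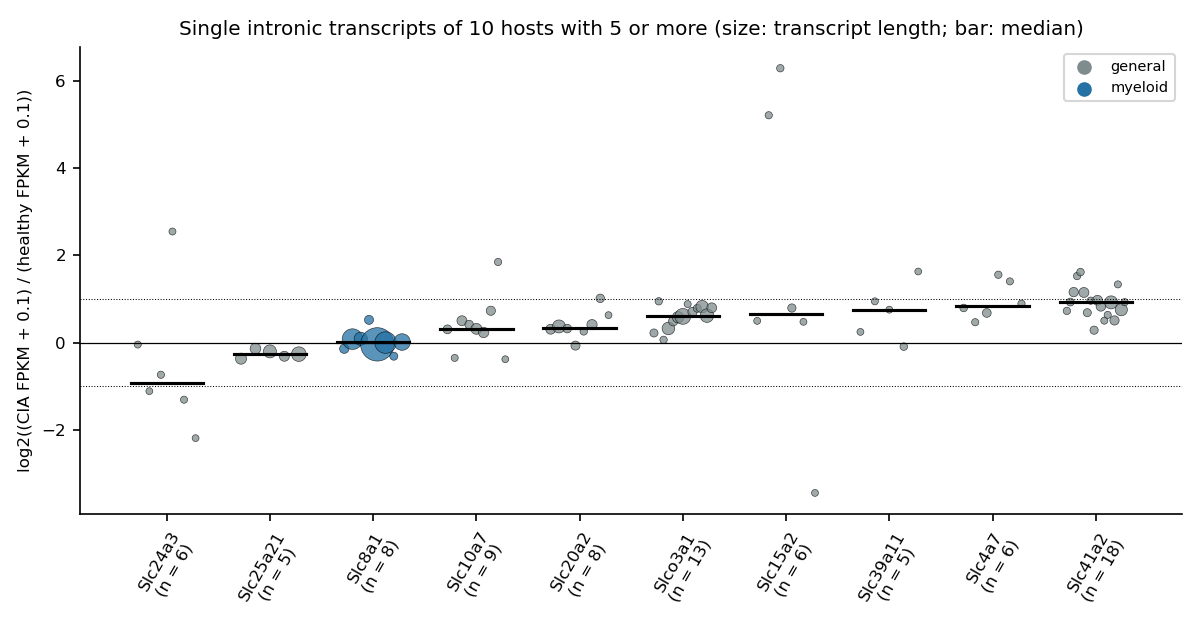
Log2 ratio of every intronic transcript in 10 hosts with at least 5 (point size by transcript length, bar at the host median, dotted lines at 2-fold). The 18 points of Slc41a2 lie between 0.28 and 1.62, the 8 of Slc8a1 between -0.31 and 0.52, and the transcripts of Slc24a3 and Slc15a2 scatter on both sides of 0.

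Of 20 transporters listed for red cells and their precursors, 7 had intronic transcripts. The median over these 7 hosts was 0.21, close to the 0.20 of all intronic hosts, with 4 above 0, 3 of them above 0.25. At least 2-fold higher was 1 of the 7 and 2-fold lower were 0, where 11.7% and 10.2% of all intronic hosts were. Slc14a1, the urea transporter of the red cell membrane, had 3 transcripts. They stood at 4.58 and 1.83 FPKM, 2.39 and 2.61 FPKM, and 5.24 and 2.58 FPKM in the CIA and healthy libraries, so 2 were higher in CIA spleen by log2 ratios of 1.28 and 0.99 and 1 was level at -0.12. Atp2b4, a plasma membrane calcium pump, had a single transcript of 462 bases on the strand opposite the gene. It stood at 2.28 FPKM in CIA spleen and 0.875 FPKM in healthy spleen (log2 ratio 1.29).

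Other red cell hosts differed little. Slc11a2, the divalent metal transporter that brings iron out of endosomes, stood at 4.33 FPKM in CIA spleen and 4.56 FPKM in healthy spleen (log2 ratio -0.07). Slc22a4, a carnitine and ergothioneine transporter, stood at 3.72 and 4.07 FPKM (-0.13). Both lay within 0.25 of an equal level and below 0.

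The transporters listed for myeloid cells gave 6 hosts out of 23, with a median of 0.04. Of these, 4 lay above 0 and 2 above 0.25. The 2-fold limits were passed upward by 1 of the 6 and downward by 1, and by 11.7% and 10.2% of all intronic hosts. Abca1, which exports cholesterol to lipoproteins, was higher in CIA spleen at 6.65 FPKM against 3.77 FPKM (log2 ratio 0.80, a transcript of 2341 bases on the opposite strand). Abcg1, the other cholesterol exporter, was not, with a host median of 0.08. Its pair of transcripts, also on the opposite strand, stood at 2.59 and 2.95 FPKM and at 3.11 and 2.42 FPKM. Abca13 stood at 4.29 and 1.60 FPKM in a single transcript of 382 bases (1.37).

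Slc2a3, a glucose transporter of neutrophils, macrophages and lymphocytes, was the myeloid host at least 2-fold lower. Its 4 transcripts were all under 500 bases and stood at 0.537, 1.402 and 1.51 FPKM in CIA spleen and at 2.04, 1.998 and 1.83 FPKM in healthy spleen, with the last listed at the floor in CIA spleen and at 1.89 FPKM in healthy spleen. The host median was -1.12, and -0.48 without the transcript at the floor, so the 2-fold call rests on that transcript. Atp8b4, a flippase family member, stood at 2.51 and 1.99 FPKM in the longer of its transcripts and at 1.78 and 2.74 FPKM in the shorter, which point in opposite directions.

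The other 77 hosts, here called general, had a median of 0.21, with 48 above 0 and 36 above 0.25. The ratio was 2-fold higher or more in 12 and 2-fold lower or more in 9, against 11.7% and 10.2% of all intronic hosts. By median, red cell, myeloid and general transporters thus lay at 0.21, 0.04 and 0.21, each within a range of hosts that spans 0. In summed level the red cell group stood at 117.7 FPKM in CIA spleen and 88.4 FPKM in healthy spleen, the myeloid group at 60.7 and 59.9 FPKM, and the general group at 613.4 and 507.7 FPKM.

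**Figure D4:**
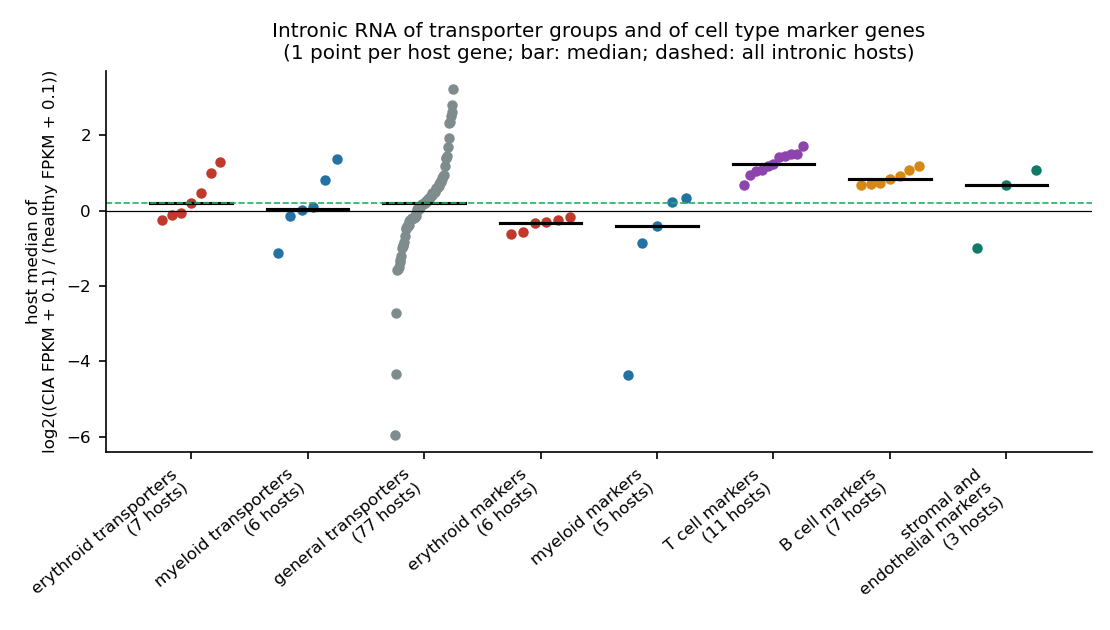
Host medians of the log2 ratio (1 point per host gene, bar at the median) for the transporter groups and for intronic RNA of cell type marker genes, with the median of all intronic hosts dashed. The red cell, myeloid and general transporters centre near 0.2 or below, all 11 T cell and all 7 B cell marker hosts lie above 0, and all 6 erythroid marker hosts lie below 0.

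Marker genes of spleen cell types, measured by the same intronic readout, differed between the libraries. All 11 T cell marker hosts found of 20 listed were higher in CIA spleen, with a median of 1.24 and a range from 0.67 to 1.72, and their summed level was 286.5 FPKM against 124.4 FPKM. All 7 B cell marker hosts found of 18 were higher too, with a median of 0.83 and a sum of 497.0 against 281.9 FPKM. All 6 erythroid marker hosts of 23 were lower, with a median of -0.32, a range from -0.63 to -0.17 and a sum of 126.2 against 151.3 FPKM. Alas2 and Klf1, which mark the red cell lineage, had no intronic transcript. The myeloid markers gave 5 hosts of 24 with a median of -0.41, 2 of them above 0, and a sum of 25.9 against 27.5 FPKM, without Csf1r, Itgam or Adgre1. That median is the value of Vcam1, which had 1 transcript. The lowest myeloid marker, Fcgr3, also had 1, listed at the floor in CIA spleen and at 1.94 FPKM in healthy spleen. Pecam1, Stab2 and Ptprb of 13 stromal and endothelial markers were found at 1.08, 0.66 and -0.9997, and no NK cell or megakaryocyte marker was. The part of cell composition in the transporter values was not tested, and in bulk RNA fewer cells of a type and less RNA per cell cannot be told apart.

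Hosts were also grouped by role, in classes formed after the values were seen. Among ion exchangers and cotransporters, 10 of 11 hosts were above 0 and 8 above 0.25, with a median of 0.57. Those above 0 included Slc8a1, at only 0.005, and Slc9a7, which was at -0.92 when its transcripts were weighted by length. Slc9a7, a sodium-proton exchanger of the Golgi, had 4 transcripts, of which 3 stood at 6.64, 15.01 and 18.1 FPKM in CIA spleen and at 4.70, 9.21 and 11.4 FPKM in healthy spleen. The other, MSTRG.40055.2, was the opposite at 0.733 and 4.40 FPKM. It shares its locus with another assembled isoform, named for Gm9083, which stood at 7.499 and 4.67 FPKM, and the way reads were divided between the pair was not tested. Its relatives Slc9a8 and Slc9a9, the latter of endosomes, stood at 8.03 and 4.91 FPKM and at 2.69 and 1.36 FPKM, higher in CIA spleen (log2 ratios 0.70 and 0.93).

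Slc12a7, a potassium-chloride cotransporter, was among the hosts furthest above 0. Its transcript of 1930 bases stood at 3.05 FPKM in CIA spleen and 0.916 FPKM in healthy spleen (1.63), and one of 202 bases at 3.29 and 0.229 FPKM (3.36). Slc20a2, a phosphate transporter, had 8 transcripts with a median of 3.16 and 2.70 FPKM, 7 of them above 0, and a host median of 0.34. Slc24a3, a potassium-dependent sodium-calcium exchanger, was the only host of this class below 0 (-0.93). Its 6 transcripts, the longest of 547 bases, ran from 0.332 to 2.52 FPKM in CIA spleen and from 0.348 to 1.95 FPKM in healthy spleen, and their log2 ratios ran from -2.20 to 2.55.

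The metal transporters were divided, with 4 of 9 hosts above 0, 3 above 0.25 and a median of -0.07. Beside Slc41a2, its relatives Slc41a1 and Slc41a3 each had a single short transcript and lay below 0, Slc41a3 at 0.592 and 1.67 FPKM (-1.36). Slc39a11, a zinc importer, had 5 transcripts, 4 of them above 0, with a median of 2.20 FPKM in CIA spleen and 1.74 FPKM in healthy spleen (0.75). Slc30a9, of the zinc transporter family, had overlapping transcripts on opposite strands that stood at 0.245 and 1.23 FPKM and at 3.40 and 5.60 FPKM, both lower in CIA spleen. Atp7a, the copper pump, stood at 3.12 and 4.32 FPKM (-0.46).

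Sugar and monocarboxylate transporters had 4 of 8 hosts above 0, all 4 also above 0.25, and a median of 0.15. The 3 hosts of the Slc2 family, Slc2a3, Slc2a9 and Slc2a13, were all below 0, at -1.12, -0.19 and -1.56. In the Slc16 family, Slc16a10, an aromatic amino acid transporter, was among the most abundant hosts, at 13.4, 8.71, 8.15 and 5.75 FPKM in CIA spleen and 15.5, 12.02, 9.77 and 3.25 FPKM in healthy spleen. In 3 of these 4 transcripts the CIA library was lower, and the host median was -0.23. Slc16a7, a monocarboxylate transporter, was higher in all 3 of its transcripts, at 1.86, 1.93 and 2.23 FPKM in CIA spleen against 0.640, 0.998 and 0.0609 FPKM in healthy spleen. All 3 were under 400 bases.

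Of the 9 amino acid and peptide transporters, 7 were above 0 and 5 above 0.25, with a median of 0.26. Slc15a2, a peptide transporter, had 6 transcripts of 270 to 1491 bases, with values on both sides of 0. Of these, 3 stood at 5.19, 4.38 and 5.15 FPKM in CIA spleen and at 3.65, 2.48 and 3.68 FPKM in healthy spleen. Another 2, at 3.63 and 7.79 FPKM in CIA spleen, were listed at the floor in healthy spleen, though they lie between the first 3 in the same intron of 8.48 kb. The last stood at 0.128 and 2.40 FPKM. Slc36a4, an amino acid transporter of lysosomes and the plasma membrane, was 2-fold lower on a single transcript of 375 bases (0.178 and 1.73 FPKM).

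Organic ion, vitamin and urea transporters had 9 of 13 hosts above 0, 7 above 0.25 and a median of 0.31. All 4 Slco hosts were above 0, 3 of them above 0.25. By host median all 4 Slc22 hosts, of the organic cation and anion family, lay below 0, with Slc22a15 at 0.786 and 2.42 FPKM (-1.51). Slc22a14 was at -0.19 by median but at 0.07 when its transcripts were weighted by length. All 3 of its transcripts lay outside the RefSeq span of the gene. Slc19a3, a thiamine transporter, stood at 13.99 and 9.94 FPKM (0.49) in a transcript of 361 bases. Slc10a7, an orphan relative of the bile acid carriers that takes part in calcium handling, had 9 transcripts with medians of 3.90 and 3.30 FPKM, 7 of them above 0, and a host median of 0.31.

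In the mitochondrial carrier family, 6 of 9 hosts were above 0, and 5 above 0.25, with a median of 0.28. Slc25a24, an ATP-magnesium/phosphate carrier, stood at 1.94 FPKM in CIA spleen and 0.194 FPKM in healthy spleen in a transcript of 239 bases (2.80). Slc25a46, an outer membrane protein of this family, was listed at the floor in CIA spleen and at 6.05 FPKM in healthy spleen, in a transcript of 1714 bases. Slc25a25 stood at 1.90 and 1.72 FPKM in the transcript that overlaps the promoter window shown, and at 2.79 and 2.05 FPKM in one of 16189 bases nearer the 5′ end of the gene.

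The 12 ABC hosts had a median of 0.13, with 8 above 0 and 4 above 0.25. The ratio was 2-fold higher or more in 2 and 2-fold lower or more in 2, against 11.7% and 10.2% of all intronic hosts. The 3 Abca hosts, lipid exporters as a class, were all above 0 and above 0.25, and 3 of 4 Abcb hosts were below 0. Abcb1a, the drug efflux pump P-glycoprotein, stood at 0.571 FPKM in CIA spleen and 1.89 FPKM in healthy spleen in a transcript of 397 bases (-1.56). Among the P-type ion pumps 4 of 5 hosts were above 0 and 3 above 0.25. Atp2a2, the calcium pump of the endoplasmic reticulum, was the exception at 4.15 and 4.73 FPKM (-0.19), and Atp1b3 stood at 6.25 and 3.41 FPKM (0.86). Of the 8 flippases and related ATPases, 3 were above 0, 2 of them above 0.25. In this class 0 were 2-fold apart, where 21.9% of all intronic hosts were. Atp8a1 stood at 4.03 and 5.27 FPKM and at 3.19 and 3.28 FPKM in its long transcripts.

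The 24 hosts at least 2-fold apart (26.7%, with 21.9% of all intronic hosts) rested mostly on little RNA. Of them, 19 had a single intronic transcript, and in 17 of those the transcript was under 500 bases. Slc37a1, a sugar phosphate transporter, was one of these, at 2.09 FPKM in CIA spleen and 0.259 FPKM in healthy spleen over 235 bases. Among hosts with a single transcript 40.4% of the transporters were 2-fold apart, against 29.3% of all such hosts. Among hosts with at least 2 transcripts 3 of 43 were higher (6.98%, against 8.81% of all such hosts) and 2 of 43 were lower (4.65%, against 5.67%). Just inside the 2-fold limit lay Slc14a1 at 0.99 and Atp8b5, a flippase relative, at -0.98.

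Transcript length went with the spread of the log2 ratio. Under 500 bases the 78 transcripts had an SD of 1.60 and 46.2% were 2-fold apart, where 45.0% of all intronic transcripts of that length were. From 500 to under 2000 bases 17.8% of 73 were 2-fold apart, against 19.6%. At 2000 bases or more 6.41% of 78 were, against 8.44%, with an SD of 0.58. The median log2 ratio of the transporter transcripts differed less across these classes, at 0.22, 0.28 and 0.32. Over all intronic transcripts it was -0.04, 0.28 and 0.34, so transporter and other transcripts lay furthest apart under 500 bases, where the spread was widest. Leaving out the transcript listed at the floor in both libraries, the higher of the paired values was never below 1.225 FPKM, while the lower reached the floor. In the transcripts under 500 bases the higher value was at least 1.67 FPKM, and the lower had a median of 1.15 FPKM. The part of this lower limit of the listed transcripts in the large ratios was not tested.

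**Figure D5:**
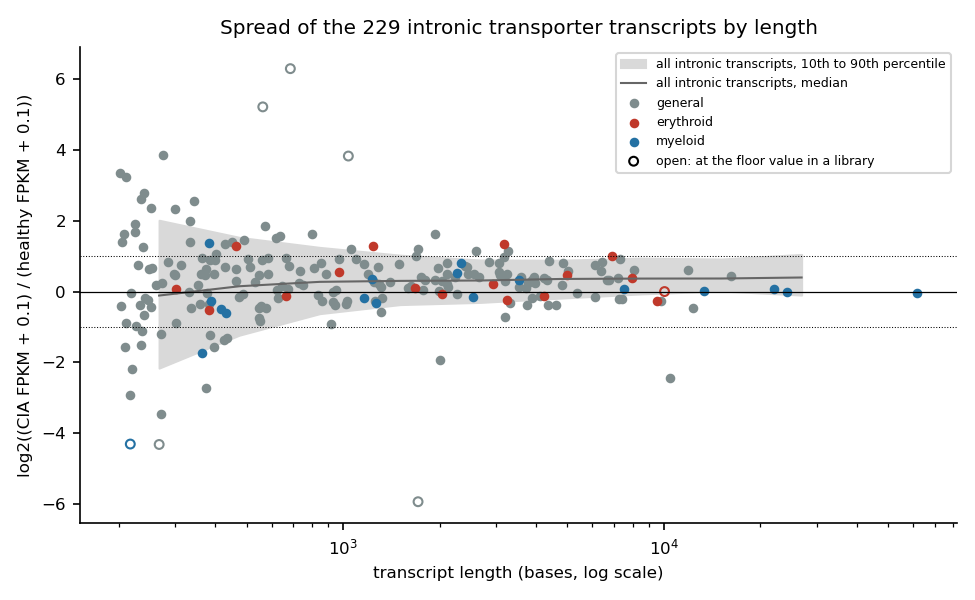
Log2 ratio against transcript length (bases, log axis) for the 229 intronic transporter transcripts, with the 10th to 90th percentile (band) and the median (line) of all intronic transcripts and open points for transcripts at the floor in a library. The transporter transcripts narrow with length as the band does, and most points beyond the 2-fold lines (dotted) are under 500 bases.

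Strand was assigned to 66 of the 229 transcripts, in 40 hosts. Of these, 39 (59.1%) lay on the strand opposite the host, against 49.6% of the 3142 stranded intronic transcripts in all. The opposite strand held all transcripts of Abca1, Abcg1, Atp1b3, Atp2a2, Atp2b4, Slc9a9, Slc22a4, Slc25a33 and Slc25a46, and most of those of Slc16a10. The values given for these transcripts are thus not of RNA on the strand of the host. The median log2 ratio was 0.35 for the opposite strand, 0.17 for the same strand and 0.30 for transcripts with no strand. By position from the 5′ end, the stretch from 0 to 25% of the gene length held 69 transcripts with a median log2 ratio of 0.19. From 25 to 50% there were 72 with a median of 0.42, from 50 to 75% there were 58 with 0.26, and from 75 to 100% there were 30 with 0.40, so the medians followed no order along the gene. Hosts with at least 5 transcripts spanned a median of 212.3 kb, and hosts with 1 spanned 59.7 kb.

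Annotated lncRNAs inside the same hosts are transcripts that the choice of members did not use. They come from the same libraries, and many had 1 exon on the strand of the host. They are therefore not an independent readout, since unspliced RNA of the host cannot be told apart from them. In 14 hosts, 20 such lncRNAs had at least 0.5 FPKM in either library, with log2 ratios from -0.51 to 1.18, a median of 0.15 and 1 at least 2-fold apart (5.0%, with 21.8% of all annotated lncRNAs at that level). That was Gm44936 in Atp10a, a flippase relative, at 0.692 and 0.249 FPKM (1.18), beside a host value of -0.25. Gm17491 in Slc20a2 stood at 11.3 and 8.51 FPKM (0.41, where the host's intronic median was 0.34). In Atp2a2, Gm43359, Gm43360 and Gm43361 stood at -0.19, -0.26 and -0.02 beside a host value of -0.19. In other hosts the lncRNA and the short intronic transcripts lay far apart, where Gm37368 in Atp2b4 stood at -0.33 beside 1.29, Gm45604 in Slc16a7 at -0.51 beside 1.404, and Gm13068 in Slc25a33 at 0.31 beside 2.36. Slc44a1, a choline transporter with 1 transcript of 490 bases, went with its lncRNA in direction, since 1700060J05Rik stood at 1.48 and 0.701 FPKM (0.98) beside 1.46.

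Assembled transcripts of other classes in transporter genes numbered 15 in 13 genes, 3 of them in genes with intronic members. Antisense to Abcb10, a mitochondrial transporter needed for heme synthesis in red cells, 3 transcripts stood at 17.0, 4.50 and 9.85 FPKM in CIA spleen and at 19.7, 4.58 and 10.004 FPKM in healthy spleen. The 3 that were at least 2-fold higher in CIA spleen belonged to Atp5d, Atp5l and Slc2a1. Atp5d and Atp5l encode subunits of the mitochondrial ATP synthase, and Slc2a1 encodes a glucose transporter. Atp5d stood at 10.4 and 1.96 FPKM. These 3 of 15 are 20%, where 21.9% of all assembled transcripts of other classes were 2-fold higher, and 0 of 15 were 2-fold lower, where 13.5% of all were. The spliced mRNA of the hosts was not analysed here.

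In the authors' deposited table, whose test the sources used here do not name, 2 of the 229 transcripts (0.873%) had a p-value below 0.05, where 1.12% of all intronic transcripts did. In the authors' deposited table these were MSTRG.40055.2 of Slc9a7, marked down with a p-value of 0.000101 and a q-value of 0.00536, and MSTRG.10553.1 of Slc12a7, marked up with a p-value of 0.0196 and a q-value of 0.285. A q-value below 0.05 was given to 0.143% of all intronic transcripts. The authors' deposited table marked 11 (4.80%, with 5.37% of all intronic transcripts) as changed, 10 of them up (4.37%, with 4.86% of all) and 1 down (0.437%, with 0.508% of all), and those marked up included 3 of Slc41a2 and 2 of Slc14a1. All but the 2 transcripts named above carried this mark without a p-value below 0.05, those of Slc41a2 and Slc14a1 among them. The mark therefore does not stand for a p-value below 0.05.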

How the data were processed

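Both libraries were total RNA of mouse spleen cells, depleted of ribosomal RNA with Ribo-Zero per the labels' protocols. StringTie, which assembles transcripts, is credited to the submitters' processing notes. Aligner, build, strandedness and test: not given in the sources used here. Coordinates of the annotated transcripts were those of GENCODE M21, which are on GRCm38. The authors deposited FPKM values per transcript, with a floor of 0.0001 in place of 0, per the file headers. The deposited ratio (fold) equalled CIA FPKM divided by healthy FPKM within a tolerance of 0.0001 for all 16840 assembled transcripts. The log2, p-value and q-value columns were likewise deposited by the authors and are quoted only.

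From the FPKM values, log2 ratios with a pseudocount of 0.1 FPKM and host medians were computed with Python 3.11.15, pandas 2.3.3 and numpy 2.4.6, with no filter on low values. The pseudocount understates ratios of low transcripts. A size rule of 2-fold stood in for a test, and the script was tested on simulated data. The simulation gave every length the same small noise and had no values at the floor. It therefore checked the computation, not the 2-fold rule on short or low transcripts. Named hosts were those of the red cell and myeloid lists, the 10 highest and 10 lowest with at least 2 transcripts, the 5 with the most transcripts, the 5 most abundant and the extremes of each family with at least 3 hosts. Slc9a8, Slc9a9, Slc25a25, Slc36a4, Slc37a1, Slc41a1, Slc44a1, Atp1b3, Atp7a and the genes of the lncRNA paragraphs were named after their values were seen, as were the classes by role. Some items that the rule names are not reported here. Members and lists were chosen with earlier results of these data known.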

Additional observations from a re-analysis of the deposited data

How the results depend on the processing

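Of 16 named hosts at least 2-fold apart, 0 changed sign in an alternative that gave them a value. Only 5 of them had a value with at least 2 transcripts, 4 with transcripts of at least 1000 bases, and 14 each with single-exon transcripts and without the floor. In a host with 1 transcript, no pseudocount, summary or filter can change the sign, and centring by 0.25 cannot reverse a 2-fold value. For most of the 16 hosts the sign was therefore fixed in advance, and its constancy is no support for the direction. A pseudocount of 1 FPKM left 7 of 90 hosts 2-fold higher and 3 lower. Among the 43 hosts with at least 2 transcripts, 3 were higher and 2 lower. Transcripts of at least 1000 bases gave 5 and 2, over the fewer hosts that had such a transcript. Shares of all intronic hosts at that pseudocount and that length are not given here, so these counts cannot be compared with intronic RNA in general. Centring on the median of all intronic transcripts (0.25) moved the medians of all transporter hosts to -0.052, of red cell transporters to -0.038, of myeloid to -0.20, of general to -0.041 and of Abc hosts to -0.12, so the side of 0 on which a group median lies depends on the scaling. The myeloid median was -0.067 with single-exon transcripts and with hosts of at least 2 transcripts. The Atp median, -0.07 as reported, was 0.25 with transcripts of at least 1000 bases and 0.022 with those inside the RefSeq span of the host. Across all alternatives the median of all transporter hosts ran from -0.05 to 0.25, the 2-fold higher count from 3 to 15 and the lower from 2 to 14. Of 47 named hosts, 11 moved by a factor of 1.5 or more with the pseudocount of 1 FPKM, 3 with 0.01 FPKM and 0 with a filter of 1 FPKM. Slc9a7 moved from 0.57 to -0.15 with the mean over its transcripts and to -0.92 when transcripts were weighted by length, since its low transcript is the longest. The cause of the other moves was not tested. The alternatives by length, by locus, without the floor and inside the RefSeq span were chosen after seeing the data. Leaving out transcripts that overlap an annotated exon changed nothing, since none did. No paired analysis was possible because with 1 library per group there is no pair to block on. Depth is unknown, which limits every value of a short transcript.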
